A study of Mus musculus with 6 samples.

Results

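The 10 genes described here, which encode feedback inhibitors of mitogen-activated protein kinase signaling, were compared between tumor cells with and without a knock-down of HIF-1α. They were chosen by name as the dual-specificity phosphatase genes Dusp1, Dusp2, Dusp4, Dusp5, Dusp6 and Dusp10, the Sprouty genes Spry1, Spry2 and Spry4, and Spred1. All 10 were among the 22880 genes of the deposited table, and all 10 were among the 12014 genes that passed the filter on low counts. The cells were MC-38GFP, mouse colon adenocarcinoma cells labeled with green fluorescent protein (GFP), transduced with the lentiviral vector pLKO.1-puro in both groups and grown as orthotopic tumors in the cecum wall of C57BL/6J mice without earlier in vivo passaging. HIF-1α-KD cells carried a knock-down of HIF-1α, the oxygen-regulated subunit of the hypoxia-inducible factor, and Mock cells were the control. Living GFP+ cells were sorted from the tumors, without cells that carried CD45 (leukocytes) or CD31 (endothelium), and polyadenylated RNA was sequenced from 3 Mock and 3 HIF-1α-KD samples, 1 library each. The age of the mice, the number of tumors per library and whether the knock-down cells were a single clone are not given in the sources used here.

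Extracellular signal-regulated kinase (ERK), JNK and p38 are switched on by phosphorylation of a threonine and a tyrosine next to their active site, and dual-specificity phosphatases remove both phosphates. DUSP1, DUSP2, DUSP4 and DUSP5 act in the nucleus, DUSP6 acts on ERK in the cytoplasm, and DUSP10 acts mainly on JNK and p38. Sprouty and Spred proteins act further upstream, between growth factor receptors and RAF, and most genes of both families are transcribed in response to the pathway they restrain.

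Normalized counts, which are reads on a gene divided by one factor per library, are given for each library in the order of replicates 1, 2 and 3. Fold changes are differences of log2(normalized count + 1), HIF-1α-KD minus Mock, from limma, with p-values adjusted over all 12014 tested genes (Benjamini-Hochberg). With 3 libraries a group, the smallest p-value of an exact permutation test is 0.1, which Dusp1, Dusp5, Dusp10 and Spry1 reached. Each library held between 19845791 and 30809327 reads on genes, and each member between 24 reads (Spry1 in Mock replicate 1) and 8303 reads (Dusp1 in Mock replicate 2). Nothing in the labels says that the libraries come from separate animals, so p-values measure the spread between these libraries only. Hif1a, the target of the knock-down, had normalized counts of 6914, 5424 and 4945 (Mock) and 697.3, 3142 and 1928 (HIF-1α-KD). The groups did not overlap (log2 fold change -1.82, standard error 0.46, adjusted p = 0.219 in limma). With single libraries left out, that of Hif1a lay between -2.30 (without HIF-1α-KD replicate 2) and -1.21 (without HIF-1α-KD replicate 1). Leukocyte markers were high in HIF-1α-KD replicate 3: the 8 markers summed to 12270 normalized counts there, against 2572 and 2711 in the other 2 HIF-1α-KD libraries and between 3688 and 4010 in Mock. Lyz2, a macrophage lysozyme, made up 8877 of those counts. The T cell marker Cd3e had at most 2 reads in any of the 6 libraries. Epithelial markers were near absent, although the line is of colon origin: the 7 markers summed to between 64.1 and 116.6 normalized counts in 5 libraries and to 519.5 in Mock replicate 3, Epcam had between 2.31 and 37.5, and the intestinal factor Cdx2 was at 0 in 4 of the 6 libraries. Without HIF-1α-KD replicate 3 the log2 fold changes of the members were -2.96 (Dusp1), -0.30 (Dusp2), -1.36 (Dusp4), -1.38 (Dusp5), -0.19 (Dusp6), -1.48 (Dusp10), 0.91 (Spry1), -0.66 (Spry2), 0.61 (Spry4) and 0.40 (Spred1), each in the direction found with all libraries. The part of the leukocyte markers in these values was not tested. In bulk RNA, a change in the share of cells that express a gene and a change in RNA per cell cannot be told apart.

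No member passed the adjusted threshold, and before adjustment 4 phosphatase genes were lower and 2 Sprouty genes higher in HIF-1α-KD cells. Dusp1, Dusp4, Dusp5 and Dusp10 met a rule of p and fold change (a p-value below 0.05 before adjustment with a fold change of 1.5 or more) on the lower side, and Spry1 and Spry4 met it on the higher side. That is 6 of 10 members, where 7.48% of all genes tested met the rule. On the lower side 4 of 10 met it, where 3.46% of all genes did. On the higher side 2 of 10 met it, where 4.02% of all genes did. The members and the gene lists below were chosen with earlier results of these data known, so these shares do not test for an excess. A limma adjusted p-value below 0.05 was reached by 0 of 10, and by 0.391% of all genes, 0.383% lower and 0.00832% higher. The adjusted p-values of the members lay between 0.142 for Dusp1 and 0.867 for Spred1, and 6 members were below 0.05 before adjustment, 4 lower (5.69% of all genes) and 2 higher (7.04%), 12.7% of all genes in either direction. The quasi-likelihood test of edgeR, run on whole reads recovered from the normalized counts, also called 0 members at an adjusted p-value below 0.05, where it called 0.391% of all genes. The Wald test of DESeq2 called 3, Dusp1, Dusp5 and Dusp10, and it called 2.36% of all genes. Without overlap between the groups were Dusp1, Dusp5 and Dusp10 (lower, as for 8.75% of all genes) and Spry1 (higher, as for 10.4% of all genes, and 19.2% in either direction). All 6 phosphatase genes had a log2 fold change below 0, with a median of -1.19, and 3 of the 4 Sprouty and Spred genes one above 0, with a median of 0.41. Of the 10 members 7 were below 0, as were 47.3% of all genes, and 3 above 0, as were 52.7%. Over the 10 members the median was -0.37, and over all genes tested it was 0.02.

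**Figure D1:**
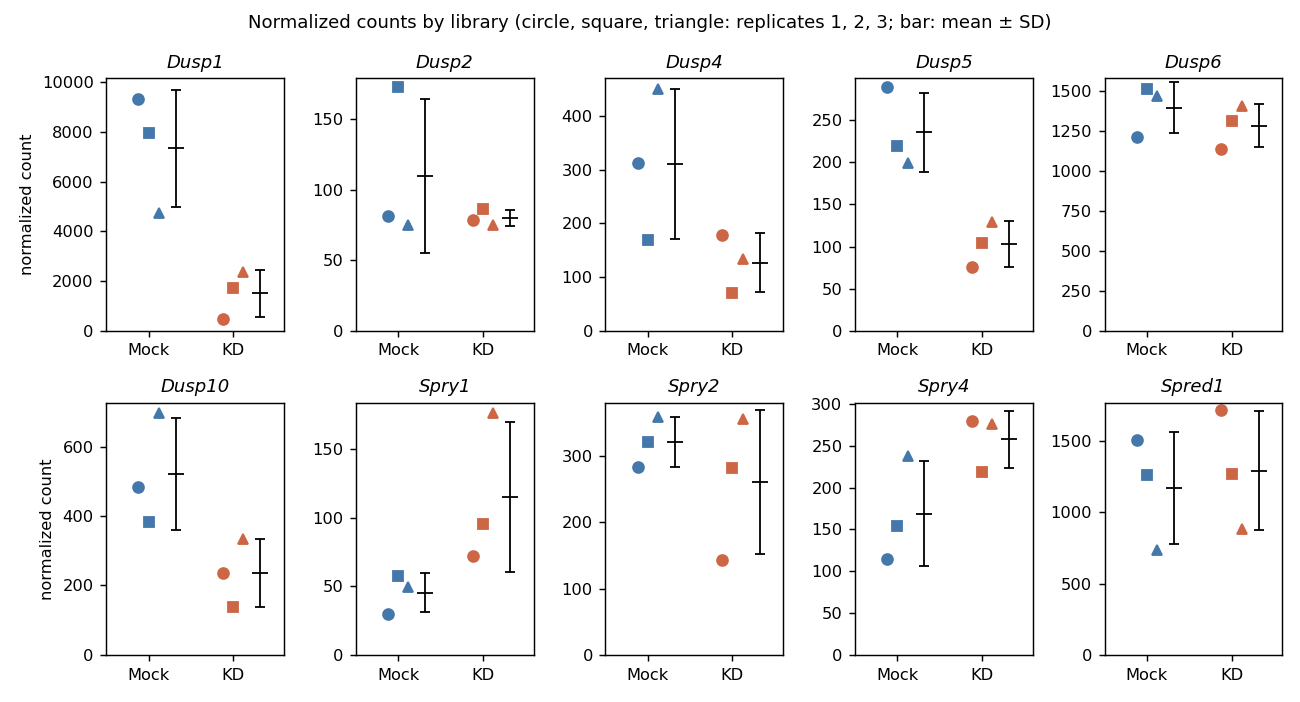
Normalized counts (vertical axes, linear from 0) of the 10 members in each Mock (blue) and HIF-1α-KD (orange) library, with the mean and SD of 3 libraries beside the points. Dusp1, Dusp5 and Dusp10 are lower in each HIF-1α-KD library than in each Mock library, Spry1 is higher in each, and the points of Dusp6, Spry2 and Spred1 overlap.

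Dusp1 (ENSMUSG00000024190, chromosome 17, 26505590 to 26562128 on the minus strand of GRCm38) encodes the phosphatase MKP-1, which is made within minutes of growth factor or stress signals and acts on p38, JNK and ERK. Its normalized counts were 9328, 7946 and 4744 (Mock) and 479.4, 1706 and 2339 (HIF-1α-KD). The lowest Mock library was above the highest HIF-1α-KD library, and the HIF-1α-KD libraries spread over a 4.88-fold range, with replicate 1 lowest. Mock cells had a mean of 7339 ± 2351 normalized counts (SD, n = 3), and HIF-1α-KD cells one of 1508 ± 946 (SD, n = 3). The log2 fold change was -2.51 (standard error 0.53, 95% interval -3.71 to -1.31, limma adjusted p = 0.142), the largest in size among the 10 members. Dusp1 ranked 97 of 12014 genes by p-value. Without HIF-1α-KD replicate 1 the fold change was smaller in size, -1.82, and its adjusted p-value was 0.0475 by limma. Without HIF-1α-KD replicate 3, the library with the leukocyte markers, it was -2.96 (limma adjusted p = 0.065). The DESeq2 Wald test gave -2.29 (adjusted p = 0.0321), and over the 15 alternatives to the test, scaling, filter, pseudocount and libraries the adjusted p-value of Dusp1 lay between 0.0321 and 0.453. HIF-1α-KD replicate 1 was the library with the lowest Hif1a count, and replicate 3 had less Hif1a than replicate 2 and more Dusp1. The part of the Hif1a level in the spread of Dusp1 was not tested.

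Dusp5 (ENSMUSG00000034765, chromosome 19, 53529109 to 53542431) encodes a nuclear phosphatase selective for ERK. The libraries had normalized counts of 289.3, 219.1 and 199.3 (Mock) and 75.6, 104.3 and 129.4 (HIF-1α-KD), without overlap. HIF-1α-KD minus Mock gave a log2 fold change of -1.20 (standard error 0.28, 95% interval -1.83 to -0.57, limma adjusted p = 0.185). The values kept within a 1.45-fold range in Mock and a 1.71-fold range in HIF-1α-KD cells, narrower than those of Dusp1, and Dusp5 had the second lowest p-value of the members. DESeq2 gave an adjusted p-value of 0.014, the lowest over the alternatives, and the highest was 0.484. Of the exon bases of Dusp5, 22.1% are shared with an annotated transcript of the opposite strand, and reads of the pair cannot be told apart without strand. Leaving out single libraries, the fold change lay between -1.38 and -0.997.

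Dusp4 (ENSMUSG00000031530, chromosome 8, 34807297 to 34819894) encodes a nuclear phosphatase that acts on ERK, JNK and p38. It had normalized counts of 312.7, 168.4 and 449.4 (Mock) and 177.8, 69.6 and 132.8 (HIF-1α-KD). Mock replicate 2 lay just below HIF-1α-KD replicate 1, so the groups overlapped. On the log2 scale the fold change was -1.28 (standard error 0.43, 95% interval -2.26 to -0.29, limma adjusted p = 0.312), and it was -1.66 without Mock replicate 2. Dusp4 no longer met the rule of p and fold change without Mock replicate 1, Mock replicate 3 or HIF-1α-KD replicate 2.

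Dusp2 (ENSMUSG00000027368, chromosome 2, 127336159 to 127338376) encodes a nuclear phosphatase best known from activated lymphocytes. Its normalized counts were 81.3, 173.2 and 74.9 (Mock) and 78.8, 86.3 and 75.1 (HIF-1α-KD). Mock replicate 2 alone stood high, and the other 5 libraries lay between 74.9 and 86.3. The log2 fold change was -0.35 (standard error 0.35, 95% interval -1.15 to 0.46, limma adjusted p = 0.724), and without Mock replicate 2 it was 0.035.

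Dusp6 (ENSMUSG00000019960, chromosome 10, 99263231 to 99267489), the cytoplasmic ERK phosphatase that is widely used as a readout of ERK activity, had a log2 fold change near 0. The libraries had normalized counts of 1210, 1509 and 1464 (Mock) and 1133, 1311 and 1401 (HIF-1α-KD), and the groups overlapped. HIF-1α-KD minus Mock gave a log2 fold change of -0.12 (standard error 0.16, 95% interval -0.48 to 0.24, limma adjusted p = 0.793). The within-group SD of Dusp6 was 0.16 on the log2 scale, the smallest of the 10 members and below the median of 0.25 over all genes tested. That of the other 9 members was between 0.34 for Dusp5 and 0.93 for Dusp1, which lay at the 95.1 percentile of all genes.

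Dusp10 (ENSMUSG00000039384, chromosome 1, 184013302 to 184075636), whose product MKP-5 acts on JNK and p38, had normalized counts of 482.6, 383.7 and 698.2 (Mock) and 237.3, 137.9 and 333.8 (HIF-1α-KD). The highest HIF-1α-KD library was under the lowest Mock library. On the log2 scale the fold change was -1.18 (standard error 0.35, 95% interval -1.97 to -0.40, limma adjusted p = 0.263), and DESeq2 gave an adjusted p-value of 0.0425, the lowest over the alternatives, with 0.531 as the highest. Leaving out single libraries, the estimate lay between -1.48 and -0.84.

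Spry1 (ENSMUSG00000037211, chromosome 3, 37639947 to 37644598) encodes an inhibitor of receptor tyrosine kinase signaling. It had normalized counts of 29.6, 57.4 and 49.5 (Mock) and 72.4, 95.9 and 176.7 (HIF-1α-KD), from between 24 and 153 reads per library. Each HIF-1α-KD library lay above each Mock library. The log2 fold change was 1.27 (standard error 0.41, 95% interval 0.33 to 2.21, limma adjusted p = 0.295), and without HIF-1α-KD replicate 3, the highest library, it was 0.91 (limma adjusted p = 0.437), where Spry1 no longer met the rule of p and fold change. Of the exon bases of Spry1, 24.4% are shared with an annotated transcript of the opposite strand.

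Spry4 (ENSMUSG00000024427, chromosome 18, 38586247 to 38601415), an inhibitor of the same kind, had normalized counts of 114.5, 154.1 and 238.0 (Mock) and 279.1, 218.2 and 276.1 (HIF-1α-KD). Mock replicate 3 lay above HIF-1α-KD replicate 2, so the groups overlapped. HIF-1α-KD minus Mock gave a log2 fold change of 0.66 (standard error 0.29, 95% interval 0.0021 to 1.32, limma adjusted p = 0.392), and its unadjusted p-value of 0.0494 was close to the limit of 0.05. Spry4 no longer met the rule of p and fold change with edgeR, DESeq2, limma without trend, TMM scaling, no filter or a replicate block, and with single libraries left out it met the rule only without Mock replicate 3.

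Spry2 (ENSMUSG00000022114, chromosome 14, 105891947 to 105896819), the Sprouty gene with the highest level here, had normalized counts of 283.1, 321.5 and 358.8 (Mock) and 143.2, 283.0 and 356.9 (HIF-1α-KD). The groups overlapped, and only HIF-1α-KD replicate 1 stood low. On the log2 scale the fold change was -0.39 (standard error 0.33, 95% interval -1.13 to 0.35, limma adjusted p = 0.655), and without HIF-1α-KD replicate 1 it was -0.0082.

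Spred1 (ENSMUSG00000027351, chromosome 2, 117121374 to 117182279), which brings the RAS inhibitor neurofibromin to the membrane, had normalized counts of 1511, 1264 and 739.3 (Mock) and 1720, 1270 and 886.0 (HIF-1α-KD). The groups overlapped over nearly their whole ranges, and the highest library was 2.04 times the lowest in Mock and 1.94 times in HIF-1α-KD. The log2 fold change was 0.15 (standard error 0.31, 95% interval -0.55 to 0.86, limma adjusted p = 0.867). Its sign turned without Mock replicate 3 (-0.15) and without HIF-1α-KD replicate 1 (-0.081).

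**Figure D2:**
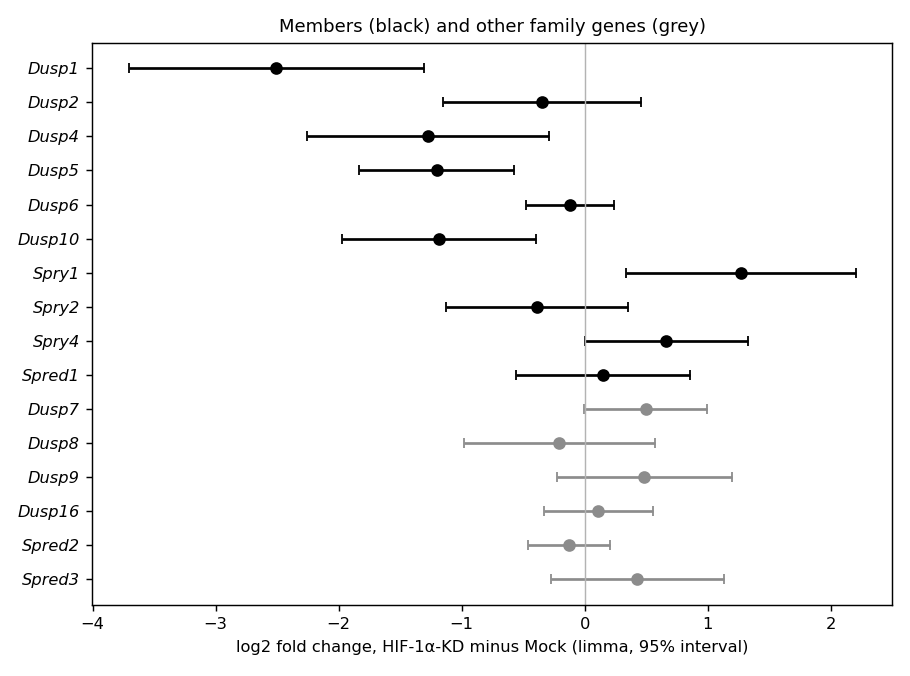
Log2 fold change (horizontal axis, HIF-1α-KD minus Mock) with its 95% interval from limma for the 10 members (black) and 6 other genes of the same families (grey). The intervals of Dusp1, Dusp4, Dusp5, Dusp10, Spry1 and Spry4 do not cross 0 before adjustment, and that of Dusp6 is the narrowest among the members.

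Levels of different genes were compared per length, as FPKM (reads scaled to the length of the gene and to the total of the library), and Dusp1 had the highest level of the 10 members in Mock cells. Its level was 172 ± 55.4 FPKM (SD, n = 3), against 19.9 ± 2.84 (SD, n = 3) for Dusp6, 12.6 ± 4.24 (SD, n = 3) for Spred1 and 11.8 ± 3.36 (SD, n = 3) for Dusp10. Spry2 (6.17 FPKM), Dusp4 (4.48), Dusp5 (3.81), Dusp2 (3.73), Spry4 (1.47) and Spry1 (0.711 FPKM) followed. In this order, neighbors whose ranges overlapped were Spred1 and Dusp10, Spry2 and Dusp4, Dusp4 and Dusp5, and Dusp5 and Dusp2. In HIF-1α-KD cells Dusp1 was still first by its mean, with 37.0 ± 23.6 FPKM (SD, n = 3), but its range overlapped that of Dusp6 (19.0 ± 2.44, SD, n = 3), and the range of Dusp6 overlapped that of Spred1 (14.3 ± 4.30, SD, n = 3). Dusp5, seventh in Mock, was the last by mean level in HIF-1α-KD cells (1.74 FPKM), where its range overlapped that of Spry1 (1.87 FPKM). By mean FPKM, Dusp1 stood at the 94.8 percentile of all genes tested in Mock and at the 73.1 percentile in HIF-1α-KD cells, while Dusp6 stood at the 60.0 and 57.4 percentile.

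Of the summed FPKM of the 10 members, Dusp1 made up 77.5%, 74.4% and 62.4% in Mock replicates and 17.5%, 44.4% and 49.6% in HIF-1α-KD replicates. The highest HIF-1α-KD share was below the lowest Mock share. The share of Dusp6 was 8.85% ± 2.82 (SD, n = 3) in Mock cells, against 21.4% ± 3.61 (SD, n = 3) after the knock-down. A share depends on the level of Dusp1 as well, and the FPKM level of Dusp6 was 19.9 and 19.0. In HIF-1α-KD replicate 1 Dusp6 (25.3%) and Spred1 (28.8%) each had a larger share than Dusp1.

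**Figure D3:**
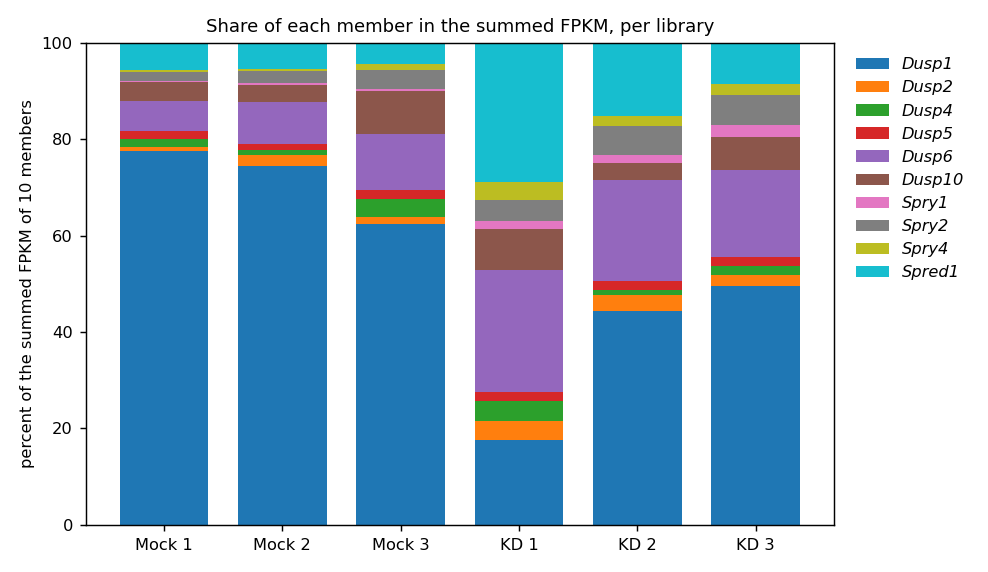
Share of each member (percent of the summed FPKM of the 10 members, vertical axis from 0 to 100) in each library (KD, HIF-1α-KD). Dusp1 (dark blue) takes 62.4% or more in Mock libraries and 49.6% or less in HIF-1α-KD libraries, with 17.5% in HIF-1α-KD replicate 1.

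Sequence before the start sites was searched in RefSeq promoters of GRCm38.p6, which were found for 8 of the 10 members, all but Dusp4 and Spry4. In the 250 bases before the start, on both strands, the letters of the cAMP response element TGACGTCA were found in Dusp1 alone among these 8, and in 1.55% of all 32851 promoters. Its shorter form TGACG, which the full element also contains, was found in Dusp1 and Dusp5 (2 of 8, against 17.8% of all promoters). The CArG box, which serum response factor binds in many early response genes, was found in Dusp5 alone among the 8, where 2 boxes stood side by side, and in 1.47% of all promoters. The core ACGTG of the hypoxia response element was found in Dusp1, Dusp2, Dusp5 and Spred1 (4 of 8, against 16.6% of all promoters), and its other form GCGTG in Dusp2, Dusp5 and Spry1 (3 of 8, against 28.2%). The AP-1 letters TGANTCA (6.75% of all promoters) and the ETS letters CCGGAA (12% of all promoters) were in 0 of the 8. These are matches of letters, and no binding was measured. The windows below are shown because they hold these matches in Dusp1 and Dusp5, the nuclear phosphatase genes without overlap of the groups, in Dusp2, whose groups overlapped, and in Spry1, the Sprouty gene without overlap. They are written 5′ to 3′ on the strand of the gene, with the matched letters in capitals.
Dusp1 (chr17:26508592-26508621, minus strand, TGACGTCA and ACGTG on both strands): ggcgggTGACGTCAccgcccggtCACGTGt
Dusp5 (chr19:53529058-53529087, plus strand, 2 CArG boxes): aatacCCATATTTGGCCTTATATGGgcact
Dusp2 (chr2:127336038-127336067, plus strand, ACGTG on both strands): cagccagagtccCACGTGaagccgcggggg
Spry1 (chr3:37639848-37639877, plus strand, GCGTG): tttcgtgcagcccGCGTGattgacacatga
The 4 members with the core ACGTG had log2 fold changes of -2.51 (Dusp1), -1.20 (Dusp5), -0.35 (Dusp2) and 0.15 (Spred1), and Dusp10, with -1.18, held none of the motifs searched in this window.

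Of 7 further members of the families, 6 were tested and 0 were below 0.05 before adjustment in limma, with a median log2 fold change of 0.27. That median lay between 0.015 (without Mock replicate 3) and 0.32 over the alternatives, and it was 0.047 without HIF-1α-KD replicate 2, 0.096 without HIF-1α-KD replicate 3 and 0.11 with no filter on low counts. Dusp7, which like Dusp6 acts on ERK in the cytoplasm, had normalized counts of 338.5, 554.1 and 527.9 (Mock) and 727.9, 615.1 and 620.3 (HIF-1α-KD), without overlap (log2 fold change 0.495, standard error 0.22, limma adjusted p = 0.397). Dusp9, of the same cytoplasmic group, had normalized counts of 1038, 1560 and 2389 (Mock) and 3068, 1797 and 1924 (HIF-1α-KD), with overlap (log2 fold change 0.48, limma adjusted p = 0.557). In Mock, Dusp9 had 24.4 ± 9.77 FPKM (SD, n = 3) and Dusp7 14.7 ± 3.99 FPKM (SD, n = 3), beside 19.9 ± 2.84 FPKM (SD, n = 3) for Dusp6. The log2 fold changes of Dusp8 and Dusp16, which act on JNK and p38, were -0.21 and 0.11, and those of Spred2 and Spred3 were -0.13 and 0.43. Spry3 was not tested: it had 16, 16 and 1 reads in Mock and 1 read in each HIF-1α-KD library. The atypical dual-specificity phosphatases, of which 9 were tested, mostly lack the kinase-binding domain. Below a p-value of 0.05 before adjustment, 1 was lower, as were 5.69% of all genes, and 1 higher, as were 7.04%. These were Dusp14 (log2 fold change -0.69, limma adjusted p = 0.386) and Dusp12 (log2 fold change 0.48, limma adjusted p = 0.382).

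Upstream of the members, 13 genes for the RAS, RAF, MEK and ERK proteins were tested in limma. By the rule of p and fold change 1 was lower, as were 3.46% of all genes, and 0 were higher. Before adjustment 2 were lower at a p-value below 0.05, as were 5.69% of all genes. The median log2 fold change was -0.07 (between -0.14 without Mock replicate 3 and -0.0087 with library-size scaling over the alternatives). The gene lower by the rule was Map2k1, which encodes the kinase MEK1 that phosphorylates ERK. Its normalized counts were 4219, 3612 and 3505 (Mock) and 1765, 2398 and 2395 (HIF-1α-KD), without overlap (log2 fold change -0.80, standard error 0.17, limma adjusted p = 0.139). Rras2, a RAS-related GTPase, had a log2 fold change of -0.52 (limma adjusted p = 0.348). Among 9 tested growth factor genes 2 were lower and 2 higher by the rule of p and fold change. Over all genes 3.46% were lower and 4.02% higher by that rule. Fgf7, a fibroblast growth factor for epithelia, had normalized counts of 597.1, 418.2 and 271.8 (Mock) and 119.8, 131.9 and 216.0 (HIF-1α-KD) (log2 fold change -1.43, limma adjusted p = 0.196). Hbegf, an EGF receptor ligand, had a log2 fold change of -0.91 (limma adjusted p = 0.347), and Fgf21 one of 1.29 (limma adjusted p = 0.367) at 38.6 normalized counts or fewer.

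Of 10 tested receptor tyrosine kinases 1 was higher by the rule of p and fold change, as were 4.02% of all genes. That gene was Fgfr3 (log2 fold change 1.07, limma adjusted p = 0.372), and 0 were lower. Axl, the receptor with the lowest p-value of the list, had a log2 fold change of -0.40. Of 11 tested adaptors and exchange factors 0 were called in either direction by that rule in limma. Before adjustment 2 were higher at a p-value below 0.05, as were 7.04% of all genes. These were Ptpn11, which encodes the phosphatase SHP2 that relays receptor signals (log2 fold change 0.41), and Nf1, the RAS inhibitor that Spred1 recruits (log2 fold change 0.36). Of 9 tested JNK and p38 kinase genes 0 were called by that rule in limma, and Mapk11 and Map2k3, of the p38 branch, had log2 fold changes of 0.54 and 0.37, both below 0.05 before adjustment.

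Of 10 tested other genes that ERK signaling induces, 2 were lower and 1 was higher by the rule of p and fold change. Over all genes 3.46% were lower and 4.02% higher by that rule. The median log2 fold change of the list was 0.08 (between -0.11 without Mock replicate 1 and 0.33 without Mock replicate 3 over the alternatives). Ier3, an early response gene that prolongs ERK activity and protects from apoptosis, had normalized counts of 4406, 5029 and 4357 (Mock) and 690.1, 1433 and 1320 (HIF-1α-KD) (log2 fold change -2.07, standard error 0.26, limma adjusted p = 0.0242), and it was the only gene of this list that fell at an adjusted p-value below 0.05. Fosl1, a subunit of AP-1, had a log2 fold change of -0.80 (limma adjusted p = 0.291). Etv1, an ETS family transcription factor, had normalized counts of 211.7, 219.1 and 187.2 (Mock) and 489.8, 365.7 and 337.3 (HIF-1α-KD), without overlap (log2 fold change 0.93, limma adjusted p = 0.182).

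Immediate early genes, the class of rapidly induced genes to which Dusp1 belongs, had lower counts in HIF-1α-KD cells as a list. All 14 tested (of 15) had a log2 fold change below 0, as did 47.3% of all genes. By the rule of p and fold change 10 were lower, as were 3.46% of all genes. The median was -1.37, or -0.89 without HIF-1α-KD replicate 1. An adjusted p-value below 0.05 in limma was reached by 0 of 14. Before adjustment 11 were lower at a p-value below 0.05, as were 5.69% of all genes. The list summed to 47320, 58210 and 41200 (Mock) and to 9173, 24240 and 28120 (HIF-1α-KD) normalized counts, so HIF-1α-KD replicate 1 was lowest and replicate 3 the highest of its group, as for Dusp1. Ier2 (log2 fold change -1.45, limma adjusted p = 0.119), Klf6 (-1.26, limma adjusted p = 0.182) and Zfp36 (-1.71, limma adjusted p = 0.238) had the lowest p-values of the list. The part of this class in the difference of Dusp1 was not tested. Per the paper's methods, tumors were digested with enzymes before sorting. The part of that step in the counts of this list and of Dusp1 was not tested. For comparison, of a list of 10 HIF-1 targets, 7 fell at a limma adjusted p-value below 0.05, as did 0.383% of all genes. Among them were Bnip3 (-2.70), Pgk1 (-1.55) and Ndrg1 (-1.59). The list of targets summed to between 136000 and 192700 normalized counts in Mock and to 62760, 59530 and 61110 in HIF-1α-KD libraries. Without Mock replicate 3 or without HIF-1α-KD replicate 2, 0 of all genes tested, Ier3 and these targets included, were below the adjusted threshold in limma.

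**Figure D4:**
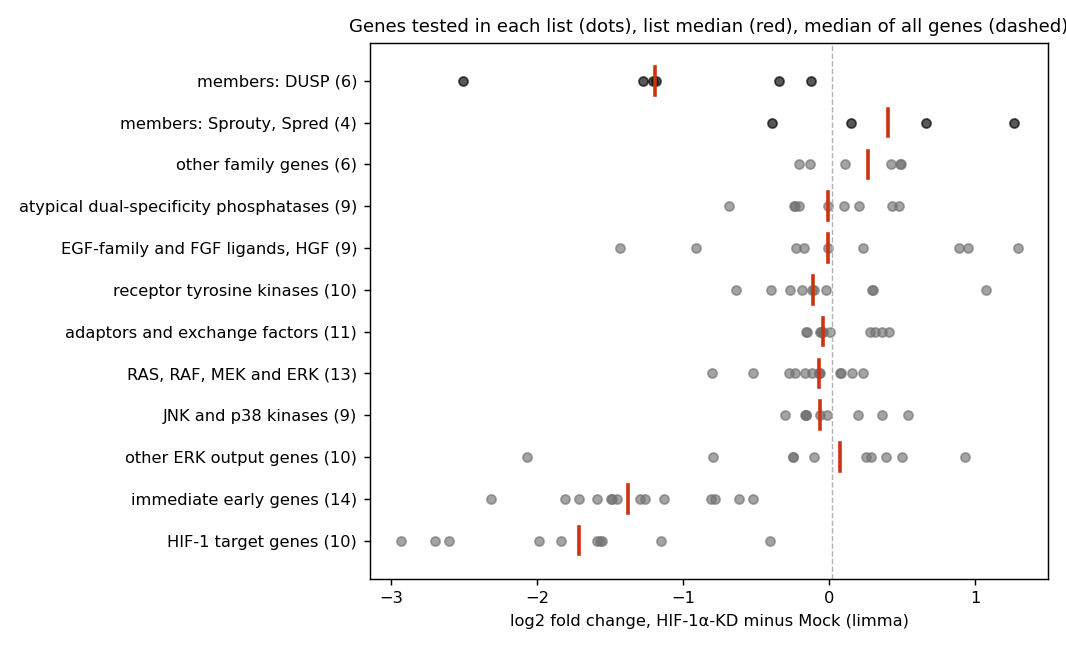
Log2 fold change (horizontal axis, HIF-1α-KD minus Mock) of each tested gene of 12 lists (dots, number of genes in parentheses), with the median of the list in red and the median of all genes tested as a dashed line. The phosphatase members (median -1.19) and the immediate early genes (median -1.37) lie to the left, the Sprouty and Spred members (median 0.41) to the right, and the RAS, RAF, MEK and ERK genes (median -0.07) near 0.

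Of the markers of other cell types, 7 leukocyte markers were tested and 0 were below 0.05 before adjustment in limma. The endothelial markers summed to between 510.9 and 623.3 normalized counts in Mock and between 322.2 and 482.0 in HIF-1α-KD libraries, and most of these counts were of Cdh5, an endothelial cadherin. Of the 3 tested, Cdh5 had a log2 fold change of -0.84 (limma adjusted p = 0.294), and Pecam1, which encodes CD31, and Tek, an angiopoietin receptor, had log2 fold changes of 0.26 and 1.26 (limma adjusted p = 0.830 and 0.484). The fibroblast and pericyte markers summed to between 31530 and 51120 in Mock and between 24410 and 39590 in HIF-1α-KD libraries. Most of these counts were of Dcn in each library. Of the 6 markers, 3 were higher at a p-value below 0.05 before adjustment, as were 7.04% of all genes. They were Cspg4 (log2 fold change 1.42), Rgs5 (1.15) and Pdgfrb (0.59), at adjusted p-values of 0.296 to 0.387 in limma. The other 3 were Dcn, Lum and Pdgfra, with log2 fold changes of -0.38, -0.16 and 0.03. The part of these markers in the members' differences was not tested.

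Leaving out single libraries moved the members by different amounts. The direction of Dusp1, Dusp4, Dusp5, Dusp6, Dusp10, Spry1, Spry2 and Spry4 was the same with each of the 6 libraries left out, and it turned for Dusp2 and Spred1. Between 4 and 5 members passed the rule of p and fold change with a library left out, against 6 with all libraries, and Dusp1, Dusp5 and Dusp10 were among them each time.

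**Figure D5:**
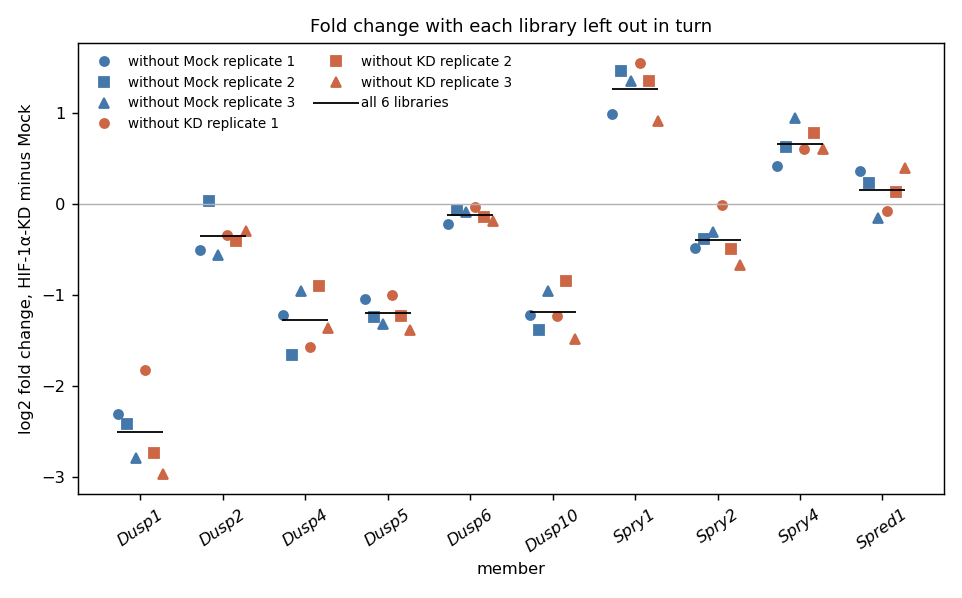
Log2 fold change (vertical axis, HIF-1α-KD minus Mock) of the 10 members with each library left out in turn (blue for Mock, orange for HIF-1α-KD, symbol by replicate) and with all 6 libraries (black line). Dusp1 stays between -2.96 and -1.82 and Spry1 between 0.91 and 1.55, whereas Dusp2 and Spred1 cross 0.

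Over the 6 libraries, the mean centered log2 profile of the 10 members was 0.19, 0.28 and 0.27 (Mock) and -0.45, -0.34 and 0.05 after the knock-down. Among the other genes tested, Pla2g12a (a secreted phospholipase), Frmd6 and Mri1 lay nearest to this mean profile. Their root mean square differences from it were 0.053, 0.077 and 0.080 on the log2 scale over 6 libraries. The mean profile joins members of opposite direction, such as Dusp1 (-2.51) and Spry1 (1.27), so it need not resemble any single member. The median centered value over the members was 0.19, 0.19 and 0.29 (Mock) and -0.21, -0.04 and -0.12 (HIF-1α-KD).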

How the data were processed

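The members and gene lists were chosen with earlier results of these data known, and the lists were written from general knowledge. Per the paper's methods, single-end reads from a stranded library kit were trimmed, aligned (STAR), counted per gene (featureCounts) and tested (DESeq2) by the authors. GRCh38 is named there, whereas the submitters' processing notes name GRCm38, STAR and edgeR, and the table carries mouse Ensembl identifiers. The strand setting of the counting is not given in the sources used here. Of the exon bases of Dusp5 and Spry1, 22.1% and 24.4% are shared with annotated transcripts of the opposite strand, and of Dusp1 0.332%. The span of Dusp1 in GENCODE M21 includes a long read-through transcript.

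The deposited normalized counts (unit: signal) are gene counts that the authors scaled by a library factor. The deposited FPKM values were computed by the authors per kilobase of the gene's width. The deposited GC value, a fraction of the transcript, and the results of the authors' own comparison (the deposited log2 ratio, p-value and false discovery rate) were not used. Reads were recovered by multiplying by the factor of each library, and 100% of the values up to 300 reads came out whole within 0.1 reads. Reads of large genes are approximate, because 4 significant digits were deposited.

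Genes were filtered with filterByExpr of edgeR 4.0.16 (minimum count of 10, by group), and log2(normalized count + 1) was fitted with limma 3.58.1 with a mean-variance trend (two-sided). Alternatives were edgeR and DESeq2 1.42.0 on recovered reads, limma without trend, TMM and library-size scaling, no filter, pseudocounts of 0.1 and 10, a replicate block and leaving out each library. The limma, edgeR and DESeq2 fits were tested on simulated data. Named genes were all members, Hif1a, the 7 other family genes, up to 3 genes of each list with the lowest unadjusted p-value, and the 3 genes nearest to the members' mean profile. The markers Lyz2, Cd3e, Epcam, Cdx2, Dcn, Lum and Pdgfra were named after their values were seen. A gene that the rule names is not reported here. Software was R 4.3.3 and, under Python 3.11.15, matplotlib 3.10.9, scipy 1.17.1, numpy 2.4.6 and pandas 2.3.3. Promoters came from RefSeq tables, and 7 of the 8 ran into a GENCODE transcript of the gene (all but Spred1).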

Additional observations from a re-analysis of the deposited data

How the results depend on the processing

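The number of members at an adjusted p-value under 0.05 was 0 in limma, 3 with DESeq2 (Dusp1, Dusp5 and Dusp10), and between 0 and 1 with each library left out, the 1 being Dusp1 without HIF-1α-KD replicate 1. The cause of the difference between tests was not tested. The number that met the rule of p and fold change was 6, and between 4 and 6 under all alternatives. The median log2 fold change of the members, -0.37, lay between -0.49 and -0.21. Signs turned for Dusp2 (0.035 without Mock replicate 2, and down to -0.56 with other libraries left out) and Spred1 (-0.15 without Mock replicate 3 and -0.081 without HIF-1α-KD replicate 1, and up to 0.40 with others left out), and for no other member under the 15 alternatives. The labels name no pairing of the samples. Deviations from the group means of same-numbered libraries correlated at -0.14, -0.12 and 0.023, and those of differently numbered libraries between -0.072 and 0.16. With 3 libraries a group, these values cannot exclude a pairing. With a replicate block 5 members passed the rule of p and fold change and 0 the adjusted threshold. Over all genes, 46 lower and 1 higher at an adjusted p-value under 0.05 became 187 and 96 with DESeq2, 1 and 0 without trend, 0 and 0 with the block, and 0 and 0 without Mock replicate 3 or without HIF-1α-KD replicate 2. With 3 libraries a group, the spread between them and counts under 60 for Spry1 in Mock limit the precision.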
